A study of Mus musculus with 10 samples.

Results

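The binding sites of the cohesin subunit Rad21 were compared with those of Ctcf in WT AB17 cells, summit by summit and in both directions. All peak summits listed for the 2 proteins on the 19 autosomes entered the comparison, which gave 100056 Rad21 summits of 101647 listed and 89238 Ctcf summits of 91355 listed. A summit is the single base at which a peak is highest. A summit was called shared when the other list had a summit within 1 kb, and it was graded by the −log10 q-value that the peak caller had given it (a unit read from the values, since the lists have no header), in the classes under 5 (weak), 5 to 20 (intermediate) and 20 or more (strong).

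AB17 is a line of hepatocytes taken from Arid1a fl/fl mouse liver, C57BL/6 by its label, and immortalized with SV40 large T antigen and an activated H-Ras. The loxP-flanked Arid1a gene was left intact in the WT cells, which had been infected with the control adenovirus Ad-GFP. Sites were mapped by ChIP-seq, the sequencing of DNA that an antibody pulls down with its protein, using a Ctcf antibody (Cell Signaling Technology, 3418S) and a Rad21 antibody (Abcam, ab992). These were 2 of 10 libraries in the series, each group had 1 library, so all values describe 1 transformed line without a replicate check and carry no p-value. The lists hold no read depth. The intervals in parentheses are 95% Wilson binomial intervals that cover counting error only.

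Cohesin is a ring-shaped complex of Smc1, Smc3, Rad21 and a Stag subunit that encircles DNA and draws it into loops. Ctcf is a zinc finger protein that reads a long, directional DNA motif and halts cohesin as it moves along the fiber, so that loop ends and domain borders are often found where both proteins bind. Loops are known to form mainly between Ctcf motifs that point toward each other. Brg1 and Arid1a, subunits of the SWI/SNF chromatin remodeling complex that was profiled in the same cells, served as a reference for the spacing of other chromatin proteins.

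To see the sites themselves, 4 of the 5 pairs with the best average rank of the 2 −log10 q-values are printed, as 101 bases around the Ctcf summit. Sequences are from the plus strand of the GRCm38 (mm10) reference, 5′ to 3′. Capitals mark a match to the Ctcf core motif, searched on both strands over 12 bases with CCA at positions 1 to 3, AG at 6 and 7, GGC at 10 to 12 and any base between. Of all 101-bp windows tiled over the autosomes, 0.504% held such a match. The strongest pair lay at chr1:85114854-85114954, within 2 kb of an annotated transcript start. Its −log10 q-value was 126 for Rad21 and 218 for Ctcf, and the nearest protein-coding start was that of A530032D15Rik (at −5051 bp). The second lay at chr1:85287234-85287334 in an intron near C130026I21Rik, and its printed sequence shared a run of 45 bases with the first. The third lay at chr10:79925425-79925525, upstream of Arid3a, which encodes a DNA-binding protein. The fifth lay at chr2:91115216-91115316 inside a coding exon of Spi1, the gene of the transcription factor PU.1.
pair 1: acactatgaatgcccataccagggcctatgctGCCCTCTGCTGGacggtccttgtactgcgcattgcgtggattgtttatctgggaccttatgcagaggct
pair 2: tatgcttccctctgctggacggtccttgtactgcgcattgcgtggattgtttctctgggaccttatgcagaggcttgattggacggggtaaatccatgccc
pair 3: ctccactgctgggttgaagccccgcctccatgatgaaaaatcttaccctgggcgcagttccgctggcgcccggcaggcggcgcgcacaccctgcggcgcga
pair 5: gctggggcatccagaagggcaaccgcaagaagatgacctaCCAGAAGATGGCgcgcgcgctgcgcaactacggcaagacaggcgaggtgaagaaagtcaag
Pairs 1 and 5 held a match and pairs 2 and 3 did not, and the summits of these pairs were 10, 49, 34 and 34 bp apart in the order printed.

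The labels were first checked against the motif. Within 50 bp of the summit, the core motif was found at 33.6% (32.9 to 34.4) of the strong Ctcf summits, 20.7% (20.2 to 21.3) of the intermediate and 5.96% (5.76 to 6.17) of the weak ones. Rad21, which does not read DNA sequence itself, gave 29.7% (28.7 to 30.8), 15.1% (14.6 to 15.6) and 2.74% (2.63 to 2.86) in the same classes. Every class of both lists was above the 0.504% of the genome windows. Only exact matches were counted, so these are not the shares of summits that hold a Ctcf binding sequence.

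Of the Rad21 summits, 51774 (51.7%, 51.4 to 52.1) had a Ctcf summit within 1 kb, and of the Ctcf summits 49796 (55.8%, 55.5 to 56.1) had a Rad21 summit. For comparison, 6.66% of the sequenced autosomal bases lay within 1 kb of a Ctcf summit and 7.35% within 1 kb of a Rad21 summit. These genome shares do not allow for both lists crowding into the same regions. Around weak Ctcf summits there were 383.3 Rad21 summits per Mb within 25 bp and 184.5 at 500 to 750 bp. Past the limit, at 1000 to 1500 bp, there were still 213.8 per Mb. Around weak Rad21 summits the Ctcf values were 508.2, 177.0 and 185.6 per Mb. The part of such crowding in the sharing of weak summits was not tested. The share of summits with a partner rose steeply with strength. It was 38.7% (38.4 to 39.1) for the 74157 weak, 86.2% (85.7 to 86.7) for the 19262 intermediate and 96.97% (96.5 to 97.4) for the 6637 strong Rad21 summits. In the other direction it was 37.3% (36.9 to 37.7) for the 52693 weak, 70.3% (69.7 to 70.9) for the 20366 intermediate and 97.9% (97.7 to 98.2) for the 16179 strong Ctcf summits. At the strong end the proteins were therefore listed together almost everywhere, whereas 201 strong Rad21 and 332 strong Ctcf summits had no partner within 1 kb.

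The intermediate class was where the directions parted. A Ctcf summit of 5 to 20 lacked Rad21 more often than a Rad21 summit of 5 to 20 lacked Ctcf, with 6052 and 2658 such summits. In finer steps, the Rad21 summits with a Ctcf partner went from 54.4% at values of 4 to 5 to 72.7% at 5 to 6 and 94.7% at 10 to 15. The Ctcf summits with a Rad21 partner went from 44.1% at 4 to 5 to 51.1% at 5 to 6 and 83.2% at 10 to 15, and reached 96.8% at 20 to 25. The −log10 q-value depends on the depth and antibody of its own library, so equal values in the lists do not mean equal binding, and the class limits cut the lists at different points: 6.63% of Rad21 and 18.1% of Ctcf summits were strong.

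**Figure D1:**
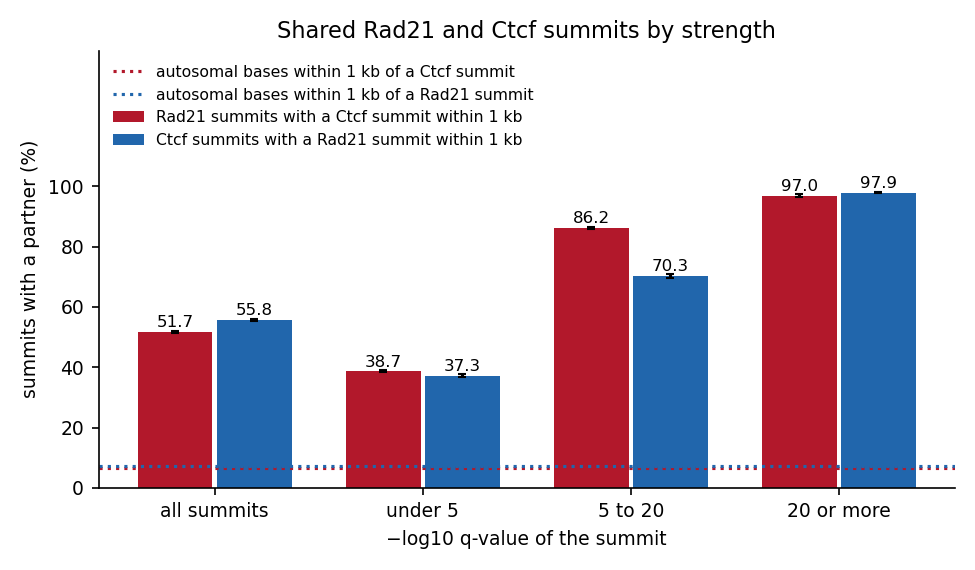
Share of Rad21 summits (red) with a Ctcf summit within 1 kb and of Ctcf summits (blue) with a Rad21 summit within 1 kb, in percent, over all autosomal summits and by −log10 q-value class. Error bars are 95% Wilson intervals and dotted lines give the percent of autosomal bases within 1 kb of a summit of the partner list. The dotted lines do not allow for both lists crowding into the same regions. Both shares exceed 96% in the strong class and stay under 39% in the weak class.

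Strong summits met strong partners. The nearest Ctcf summit was itself strong at 95.1% of the 6637 strong Rad21 summits, at 44.8% of the intermediate and at 3.801% of the weak ones. In the other direction, a strong Rad21 summit was nearest to 39.0% of the strong Ctcf summits and an intermediate one to 51.7%. The class limits bound this share, since there were 6637 strong Rad21 against 16179 strong Ctcf summits. Most shared summits had 1 partner only: 45517 Rad21 summits had 1, 6031 had 2, 225 had 3 and 1 had 4 Ctcf summits within 1 kb. Among Ctcf summits, 41776 had 1, 7579 had 2, 440 had 3 and 1 had 4 Rad21 summits.

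Next, the spacing was examined. Among shared summits, the nearest partner lay at a median of 130 bp from the Rad21 summit (interquartile range 45 to 413) and 120 bp from the Ctcf summit (43 to 363). The nearest Brg1 and Arid1a summits within 1 kb were 358 and 365 bp away from Rad21, and 377 and 386 bp from Ctcf. Within 50 bp lay 27.6% of the Ctcf partners of Rad21, but 7.74% of its Brg1 and 8.02% of its Arid1a partners. The lists were not matched for strength in this comparison. Their median −log10 q-values were 2.56 for Brg1, 2.70 for Arid1a, 3.34 for Rad21 and 4.02 for Ctcf. The limit of 1 kb did not fall at a break in the distribution, with 1900 Rad21 summits whose nearest Ctcf summit was 900 to 1000 bp away and 1799 for which it was 1000 to 1100 bp away. The share of Rad21 summits with a partner therefore depended on the limit, at 41.0% with 500 bp and 65.5% with 2000 bp.

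The density of partners as a function of distance showed how local the association was. Within 25 bp of a Rad21 summit there were 1548 Ctcf summits per Mb, against 83.9 per Mb at 9 to 10 kb, a ratio of 18.5. The same ratio was 6.04 for weak, 45.3 for intermediate and 77.7 for strong Rad21 summits. Brg1 and Arid1a gave ratios of 2.66 and 2.75 around Rad21, and 2.18 and 2.10 around Ctcf, again without matching the lists for strength. Around strong Rad21 summits, Ctcf fell from 7126 per Mb within 25 bp to 9.04 per Mb at both 300 to 400 and 400 to 500 bp, under the far level, and rose again to 281 per Mb at 1500 to 2000 bp. The summits of a single list were never closer than 198 bp for Rad21 and 236 bp for Ctcf, so a second Ctcf summit beside a first one could not appear at the shortest distances. These gaps are shorter than the low stretch, which went on with 18.7 per Mb at 500 to 750 bp and 63.0 at 750 to 1000 bp. Neighboring pairs strong in both lists, as defined below, were at least 2151 bp apart. What set the width of the low stretch was not tested.

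**Figure D2:**
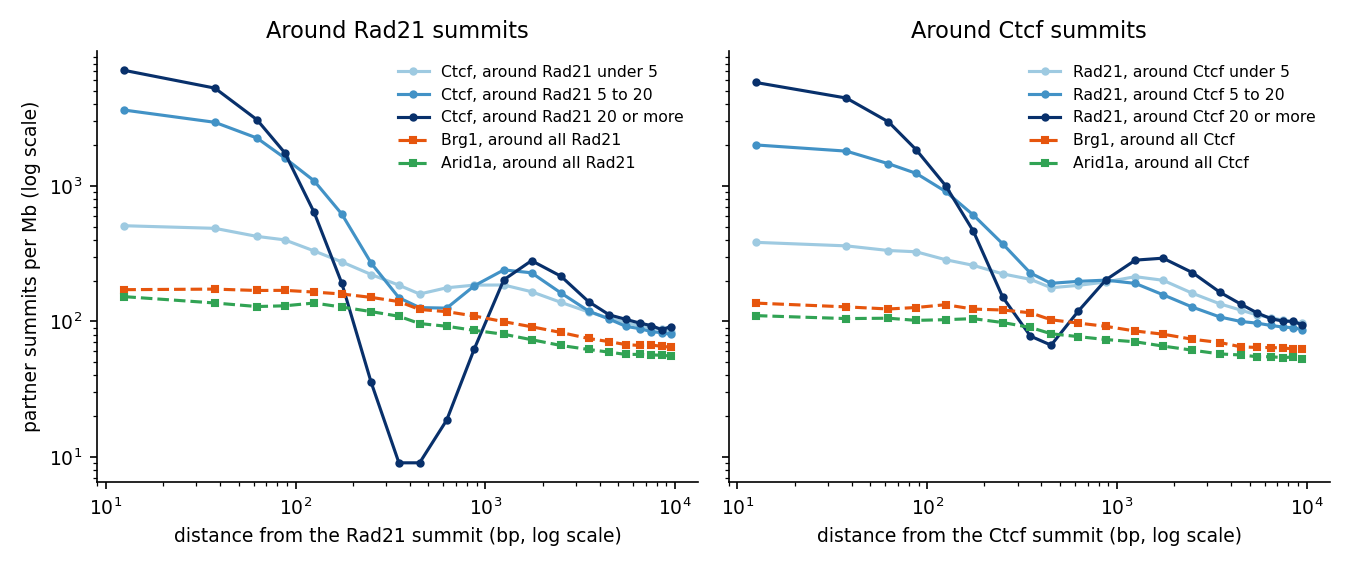
Partner summits per Mb (log scale) against the distance from a Rad21 summit (left) or a Ctcf summit (right) in bp (log scale). Blue lines give the other architectural protein around weak, intermediate and strong summits, and dashed lines give Brg1 and Arid1a around all summits. Within 25 bp, Ctcf reaches 7126 per Mb around strong Rad21 summits, and around Rad21 summits of all classes Ctcf reaches 1548 and Brg1 171.5 per Mb.

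For the measures below, each Rad21 summit was matched with a Ctcf summit when each was the nearest of the other, within 1 kb. This gave 45618 mutual nearest pairs, which used 45.6% of the Rad21 and 51.1% of the Ctcf summits. The median distance within a pair was 102 bp (interquartile range 39 to 270), with 31.3% of pairs within 50 bp and 11.7% more than 500 bp apart. It shortened as both summits strengthened. Pairs weak in both (14192) had a median distance of 267 bp, pairs intermediate in both (5793) 75 bp and pairs strong in both (6307) 36 bp, with an interquartile range of 16 to 64 in the last. A position is less certain in a weaker peak, and its part in the distance was not tested. Along the chromosome there was no preferred side, since Rad21 lay to the left in 49.8% of pairs, to the right in 49.7% and on the same base in 0.460%.

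A side emerged once the pairs were turned along the Ctcf motif. Exactly 1 core motif was found within 50 bp of the Ctcf summit in 8924 pairs, of which 4503 had it on the plus and 4421 on the minus strand. Measured from the motif center toward the GGC end (the 3′ side), the Rad21 summit had a median offset of 16.5 bp (95% interval of the median 15.5 to 18.5) and lay on the 3′ side in 60.5% (59.5 to 61.5) of pairs. The Ctcf summit of the same pairs had a median offset of 1.5 bp (0.5 to 1.5), with 51.6% (50.6 to 52.7) on the 3′ side. Its offset was bounded on both sides by construction, since the motif had to lie within 50 bp of it, while that of Rad21 was not. Within a pair, the Rad21 summit lay further to the 3′ side than the Ctcf summit in 58.7% of pairs, by a median of 15.5 bp over all pairs (interval 13 to 18).

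The median offset varied little with strength while its spread did. Weak, intermediate and strong Rad21 summits had median offsets of 21.5, 15.5 and 16.5 bp, with interquartile ranges of −100.5 to 148.2, −29.5 to 64.5 and −10.5 to 40.5 bp. In the strong class 66.97% (64.98 to 68.9) of Rad21 summits lay on the 3′ side, against 51.9% (49.9 to 54.0) of the Ctcf summits paired with them. The offset was present on both strands, at 14.5 bp for motifs on the plus and 19.5 bp for motifs on the minus strand. It was 15.5 bp at promoters, 23.5 bp in exons, 15.5 bp in introns and 17.5 bp between genes. Each of the 19 autosomes gave a positive median, from 8.5 bp on chromosome 10 to 24.0 bp on chromosome 8.

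**Figure D3:**
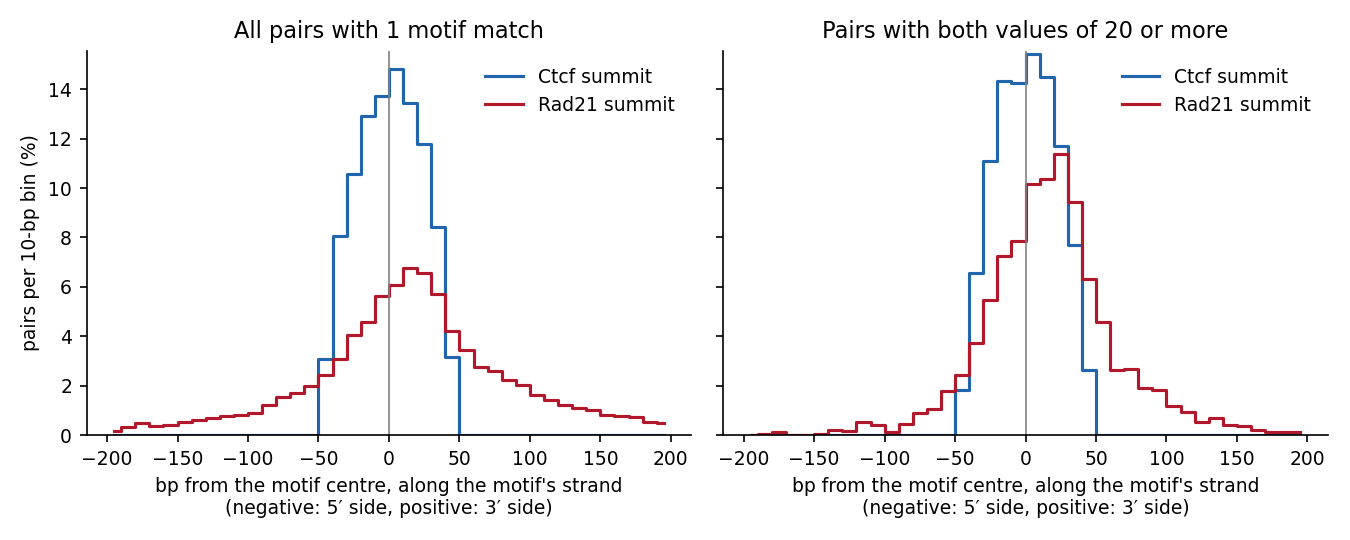
Position of the Ctcf summit (blue) and the Rad21 summit (red) relative to the center of the Ctcf core motif, in bp along the motif's strand, as percent of pairs per 10-bp bin. The left panel holds the 8924 pairs with 1 match and the right panel the 2197 of them with both values of 20 or more. Ctcf summits are limited to about 50 bp by the motif window, and the Rad21 curve is shifted to the positive, 3′ side with a median of 16.5 bp in both panels.

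The genes named by the study, the cohesin and Ctcf machinery, the hepatocyte genes and the loci known to be controlled by Ctcf or cohesin gave concrete examples. Outside annotated untranslated regions, 9 of these loci had as their highest ranked pair (within the gene and 50 kb on each side) one that was strong in both lists and carried 1 motif match. The sequences of 8 of them are printed because they show the motif and its direction beside the Rad21 offset; a match on the minus strand reads as its reverse complement, with GCC first.
Gsc, chr12:104440199-104440299, intergenic, plus strand: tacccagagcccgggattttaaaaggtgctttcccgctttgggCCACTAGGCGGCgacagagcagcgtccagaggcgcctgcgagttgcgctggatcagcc
Cdh5, chr8:104146454-104146554, intergenic, plus strand: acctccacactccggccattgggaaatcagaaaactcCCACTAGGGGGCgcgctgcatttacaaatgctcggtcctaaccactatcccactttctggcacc
Smc3, chr19:53579086-53579186, intergenic, minus strand: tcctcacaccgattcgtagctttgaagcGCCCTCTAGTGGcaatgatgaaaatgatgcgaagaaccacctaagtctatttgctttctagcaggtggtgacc
Zfp143, chr7:110083957-110084057, intron, minus strand: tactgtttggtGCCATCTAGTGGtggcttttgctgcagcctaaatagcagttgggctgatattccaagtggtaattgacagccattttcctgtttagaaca
Hnf4a, chr2:163532051-163532151, intron, plus strand: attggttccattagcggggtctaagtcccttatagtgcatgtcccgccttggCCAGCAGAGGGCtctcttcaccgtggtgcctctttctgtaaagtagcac
Igf2r, chr17:12810641-12810741, upstream of Igf2r in an intron of the antisense gene Airn, minus strand: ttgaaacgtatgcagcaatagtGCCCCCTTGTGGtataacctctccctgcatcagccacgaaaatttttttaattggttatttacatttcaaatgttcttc
Myc, chr15:61983400-61983500, promoter, plus strand: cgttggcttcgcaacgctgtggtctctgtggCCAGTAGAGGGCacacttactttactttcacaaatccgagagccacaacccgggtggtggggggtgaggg
Hoxd4, chr2:74715898-74715998, promoter, plus strand: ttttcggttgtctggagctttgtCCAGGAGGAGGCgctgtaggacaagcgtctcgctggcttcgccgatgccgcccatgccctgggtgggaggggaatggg
The Rad21 summit lay on the 3′ side of the motif at 8 of the 9 loci, which are few and were picked. Over all 2197 pairs strong in both lists with 1 match it did so in 66.9% (64.9 to 68.85). In the windows printed its offset was 42.5 bp at Gsc, 19.5 bp at Cdh5, 36.5 bp at Smc3, 12.5 bp at Hnf4a, 25.5 bp at Igf2r, 2.5 bp at Myc and 4.5 bp at Hoxd4. Zfp143 was the exception among the 9, at −25.5 bp. The Ctcf summit of the pairs printed was between −33.5 bp (Zfp143) and 21.5 bp (Hoxd4).

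The direction of neighboring motifs was then counted. Consecutive pairs with 1 motif match on a chromosome were called convergent when the motifs pointed toward each other, divergent when they pointed away, and tandem when they pointed the same way. Of 8905 neighbors, 25.3% (24.4 to 26.2) were convergent, 25.4% (24.5 to 26.3) divergent and 49.3% (48.3 to 50.4) tandem. Convergent and divergent neighbors alternate along a chromosome by construction, so their near-equal totals are fixed by the counting and are not a result. The balance changed with the gap between the sites. Because the totals are bound to each other, a divergent excess at shorter gaps and a convergent excess at longer gaps are not separate results. Neighbors under 10 kb apart (705) were convergent in 16.7% (14.2 to 19.7) and divergent in 31.6% (28.3 to 35.2), and those 100 kb or more apart (4573) were convergent in 29.8% (28.5 to 31.1) and divergent in 22.0% (20.8 to 23.2). When both summits of each pair were strong, 1 of 43 neighbors under 10 kb apart was convergent and 20 were divergent, whereas of 1799 neighbors at 100 kb or more 510 were convergent and 432 divergent. Other pairs without a core motif match can lie between such neighbors.

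Rank agreement of strength was high over all pairs and uneven within them. The −log10 q-values of Rad21 and Ctcf in the 45618 pairs gave a Spearman rho of 0.764 and, on log10 of the values, a Pearson r of 0.792. Each pair is a pair of measurements at one place in 1 library per protein, and all pairs share those libraries. The median Ctcf value was 9.87 and the median Rad21 value 4.72, and Ctcf was higher in 79.8% of pairs. The median Rad21 value was 2.96, 2.97 and 3.19 in the lowest 3 of 10 equal groups by Ctcf value and climbed to 11.5, 18.45 and 29.8 in the highest 3. The ranks of weak Ctcf summits and of their Rad21 partners were nearly unrelated, since rho was 0.083 among pairs with weak, 0.418 with intermediate and 0.590 with strong Ctcf summits. Split by Rad21 class instead, rho was 0.209, 0.558 and 0.498, so it did not rise from intermediate to strong. A class holds only part of the range of values, and the part of this in rho was not tested. Many summits tied, since the 10 commonest values made up 38.7% of the Rad21 and 32.5% of the Ctcf list.

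Closely spaced pairs ranked more alike. The rank correlation was 0.834 in the 14290 pairs within 50 bp, 0.745 in the 19133 pairs at 50 to 250 bp and 0.259 in the 12195 pairs further apart. These groups also differed in strength, with median Ctcf values of 26.0, 11.35 and 3.73 and median Rad21 values of 10.6, 5.12 and 3.19. Spacing and strength were not separated here. By context, rho was 0.817 between genes, 0.7785 in introns, 0.7745 in exons and 0.6825 at promoters. Pairs with a core motif at the Ctcf summit had a rho of 0.826 and a median Ctcf value of 26.6, and those without one 0.721 and 7.07. By class, 1153 of the 15825 pairs with a strong Ctcf summit had a weak Rad21 summit, and 4 of the 6434 pairs with a strong Rad21 summit had a weak Ctcf summit. The same limits cut the scales at different ranks, so these counts are not matched between the proteins. Of the 100 highest pairs of each protein 31 were common to both, where those 100 are 0.219% of all pairs, of the 1000 highest 399 (39.9%, of a set that is 2.19% of all pairs) and of the 10000 highest 7486 (74.9%, of a set that is 21.9%).

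**Figure D4:**
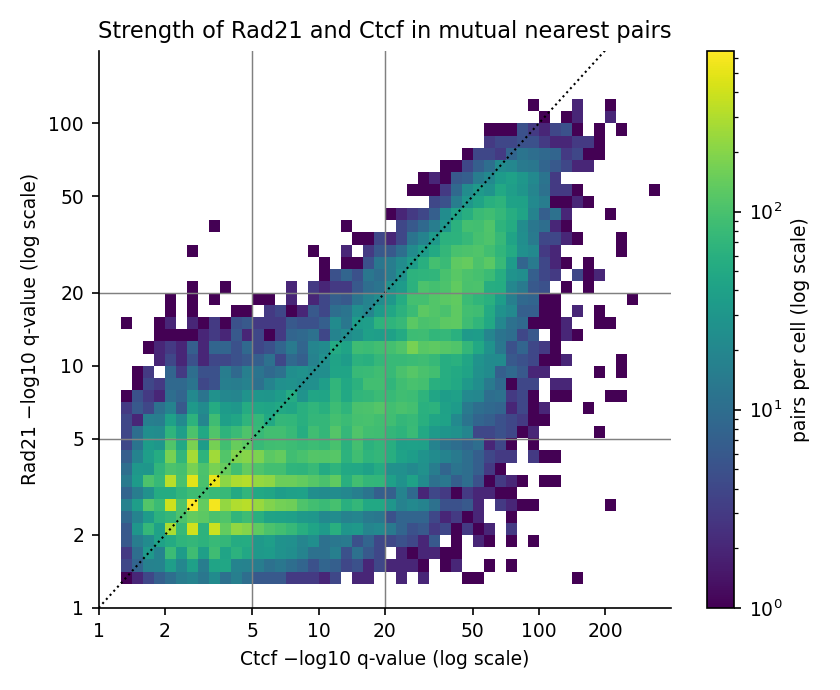
The −log10 q-value of Rad21 against that of Ctcf (both log scales) in the 45618 mutual nearest pairs, with color giving the number of pairs per cell (log scale). Grey lines mark the class limits of 5 and 20 and the dotted line equal values. The cloud is flat under a Ctcf value of 5 and rises above it, mostly under the line of equal values, and the corner of strong Rad21 with weak Ctcf holds 4 pairs.

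Summits left without a partner differed in their surroundings. Promoters, here within 2 kb of any annotated transcript start, made up 11.45% of the sequenced autosomal bases. They held 30.3% (29.9 to 30.7) of Rad21 summits with Ctcf and 26.1% (25.7 to 26.5) of those without. The order was not fixed. It turned when both lists were limited to values of at least 3, with 29.4% and 31.6%. Among intermediate Rad21 summits 30.99% (30.3 to 31.7) with Ctcf and 41.6% (39.8 to 43.5) without were at promoters, and among weak ones 31.1% (30.5 to 31.6) and 25.2% (24.8 to 25.6). Ctcf summits at promoters had Rad21 in 63.0% (62.4 to 63.6), those in exons in 54.65%, those in introns in 50.7% and those between genes in 55.9%. Strong Ctcf summits without Rad21 were at promoters in 37.7% (32.6 to 43.0), against 27.5% (26.8 to 28.2) of those with Rad21.

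How often the remodeler was near a Rad21 summit with or without Ctcf depended on the class. At promoters, 51.8% (48.8 to 54.7) of the 1107 intermediate Rad21 summits without Ctcf had a Brg1 summit within 1 kb, against 42.9% (41.6 to 44.3) of the 5146 with Ctcf. For Arid1a the shares were 45.3% (42.3 to 48.2) and 37.2% (35.9 to 38.6). Away from promoters, Brg1 was near 21.02% (19.1 to 23.1) of those without and 14.9% (14.2 to 15.5) of those with Ctcf. Weak Rad21 summits at promoters had the opposite order, with Brg1 near 32.75% (31.9 to 33.6) of those without and 38.7% (37.7 to 39.8) of those with Ctcf. Among strong ones Brg1 was near 30.4% (19.1 to 44.8) of the 46 without and 36.9% (34.6 to 39.3) of the 1601 with Ctcf, and Arid1a near 15.2% (7.57 to 28.2) and 29.2% (27.1 to 31.5). Intermediate Ctcf summits at promoters had Brg1 in 25.4% (23.3 to 27.7) without and 36.5% (35.1 to 38.05) with Rad21. In the weak class, 21.7% (20.7 to 22.7) had Brg1 against 41.1% (39.9 to 42.3) of the weak Ctcf summits with Rad21. The 125 strong Ctcf summits without Rad21 at promoters had Brg1 in 53.6% (44.9 to 62.1), against 38.2% (36.75 to 39.6) of the 4361 with Rad21. For Arid1a the intervals of these groups overlapped, at 34.4% (26.65 to 43.1) and 30.5% (29.1 to 31.9). Away from promoters, Brg1 was near 17.4% (12.8 to 23.1) of the 207 strong Ctcf summits without and 17.6% (16.9 to 18.3) of those with Rad21. Of the autosomal bases, 6.23% lay within 1 kb of a Brg1 summit and 5.47% within 1 kb of an Arid1a summit.

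Ctcf without Rad21 lay more often in repeats. The bases that the reference marks as interspersed or simple repeats (soft-masked) made up 33.5% of the sequenced autosomes. They held 35.2% (34.7 to 35.7) of Ctcf summits without Rad21 and 21.6% (21.2 to 22.0) of those with it. In the intermediate class the values were 41.5% (40.2 to 42.7) and 27.9% (27.2 to 28.7), and in the strong class 12.3% (9.23 to 16.3) and 10.9% (10.5 to 11.4). The core motif did not separate the groups of intermediate Ctcf summits, at 21.7% (20.7 to 22.7) without and 20.3% (19.7 to 21) with Rad21. In repeats, 25.5% (23.8 to 27.3) of the weak Ctcf summits with a motif had a Rad21 partner, against 31.6% (30.9 to 32.4) of those without a motif. Weak Rad21 summits in repeats went the other way, with a Ctcf partner at 78.3% (75.7 to 80.6) of those with a motif and 36.6% (35.9 to 37.3) of those without. Neither order was particular to repeats. Outside them, 33.6% (30.4 to 36.99) of weak Ctcf summits with and 40.3% (39.8 to 40.85) without a motif had Rad21, and 73.1% (70.2 to 75.8) of weak Rad21 summits with and 38.05% (37.6 to 38.45) without a motif had Ctcf. How reads that map to several repeat copies were handled beyond the removal of low-quality reads is not given in the sources used here, and its part in these shares was not tested.

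The strong summits without a partner were looked at singly. The nearest Ctcf summit lay at a median of 2129 bp from the 201 strong unshared Rad21 summits, with 87 (43.3%) inside 2 kb, and the core motif was found at 27.9% (22.1 to 34.4) of these Rad21 summits. The nearest Rad21 summit lay at a median of 1971 bp from the 332 strong unshared Ctcf summits, with 169 (50.9%) inside 2 kb. The 3 highest of each kind are printed, as 101 bases around the unshared summit, and 0 of the 6 windows held an exact match to the core motif. Most Ctcf summits lacked one too, since 80.3% of all mutual nearest pairs had none at the Ctcf summit. A window without a match can therefore still hold a related Ctcf sequence.
Rad21 without Ctcf, chr15:101988303-101988403, intergenic near Krt8: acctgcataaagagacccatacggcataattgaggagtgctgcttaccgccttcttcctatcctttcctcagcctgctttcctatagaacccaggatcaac
Rad21 without Ctcf, chr5:146904518-146904618, intergenic near Gtf3a: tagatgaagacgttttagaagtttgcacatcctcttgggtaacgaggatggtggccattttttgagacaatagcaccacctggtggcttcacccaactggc
Rad21 without Ctcf, chr10:59292723-59292823, intergenic near P4ha1: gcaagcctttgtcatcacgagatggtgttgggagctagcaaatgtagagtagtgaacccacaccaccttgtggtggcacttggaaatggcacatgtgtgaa
Ctcf without Rad21, chr15:103182293-103182393, intergenic near Smug1: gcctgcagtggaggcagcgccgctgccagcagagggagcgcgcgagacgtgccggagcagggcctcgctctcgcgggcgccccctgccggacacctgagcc
Ctcf without Rad21, chr17:3083734-3083834, promoter, nearest coding gene Scaf8: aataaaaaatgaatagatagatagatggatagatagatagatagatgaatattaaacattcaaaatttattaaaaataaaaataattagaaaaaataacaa
Ctcf without Rad21, chr10:62183191-62183291, intergenic near Fam241b: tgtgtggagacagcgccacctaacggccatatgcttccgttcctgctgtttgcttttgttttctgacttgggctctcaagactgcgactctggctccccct
The Rad21 summit near Krt8, a keratin gene of simple epithelia, had a −log10 q-value of 92.4, and its nearest Ctcf summit was 3406 bp away with a value of 1.95. The Rad21 summit near Gtf3a had 81.5, and a Ctcf summit of 71.6 stood 1400 bp away. The Ctcf summit near Smug1, a DNA repair glycosylase gene, had 165, and a Rad21 summit of 2.77 stood 1715 bp away. The Ctcf summits near Scaf8 and Fam241b lay in soft-masked repeats, and the window printed for the former began 83733 bp from the first sequenced base of its chromosome.

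Around gene starts, shared and unshared summits took different shapes. The start was the outermost one of the nearest protein-coding gene. Within 2 kb of it lay 16.3% of the pairs, 12.7% of Rad21 summits without Ctcf and 8.56% of Ctcf summits without Rad21. Pairs straddled the start evenly, with 1706 in the 500 bp upstream and 1730 in the 500 bp downstream. Rad21 without Ctcf was lopsided, with 843 summits in the 500 bp upstream and 1699 in the 500 bp downstream, and 35.7% of those within 2 kb were upstream against 46.3% of pairs. Ctcf without Rad21 had no crest, with 421 and 490 summits in the same bins and 447 between 1500 and 2000 bp upstream. These groups also differed in strength. Weak summits made up 45423 of the 48282 Rad21 summits without Ctcf and 33058 of the 39442 Ctcf summits without Rad21. Among the 45618 pairs, 23203 had a weak Rad21 summit. The shapes were not split by class, and the part of strength in them was not tested.

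**Figure D5:**
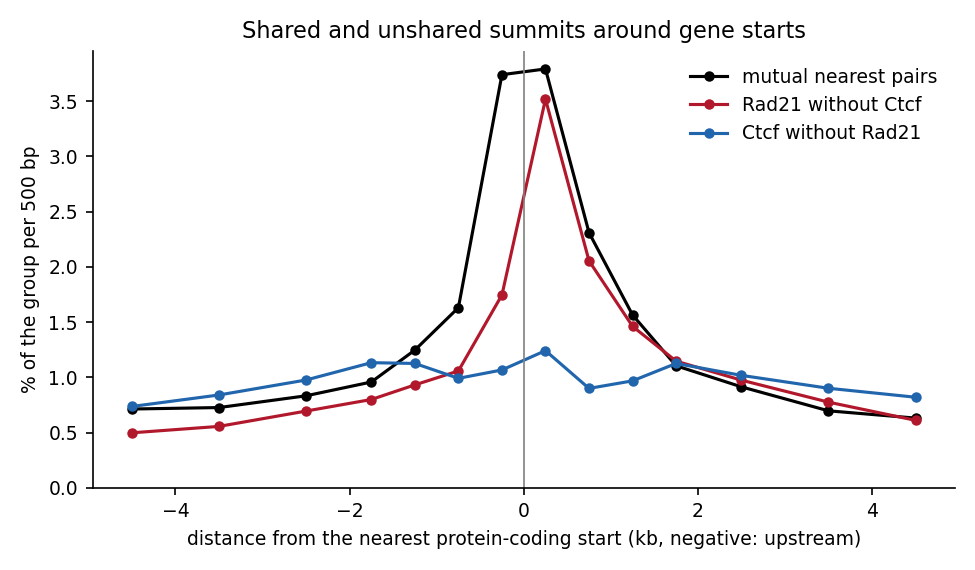
Percent of mutual nearest pairs (black), of Rad21 summits without Ctcf (red) and of Ctcf summits without Rad21 (blue) per 500 bp, against the distance from the nearest protein-coding start in kb, negative upstream. Pairs peak evenly on both sides of the start at 3.74% and 3.79%, Rad21 without Ctcf peaks downstream at 3.52%, and Ctcf without Rad21 stays between 0.7365% and 1.24%.

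Of the 20807 protein-coding genes on autosomes, 7037 (33.8%) had a pair with both summits within 2 kb of the start. A further 3258 (15.7%) had Rad21 only, 1505 (7.23%) Ctcf only, 610 (2.93%) both proteins without such a pair and 8397 (40.4%) neither. A pair strong in both lists lay in the gene or within 50 kb of it for 9909 genes (47.6%). The median gene had 5 pairs in that window.

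Among the cohesin and Ctcf machinery, 8 of 15 genes (53.3%) had a pair at the start, against 33.8% of all protein-coding genes. A strong pair in the window was found for 10 of 15 (66.7%), against 47.6%. Ctcf itself had a pair at its own start, 21 bp apart, with a −log10 q-value of 23.4 for Rad21 and 65.0 for Ctcf. It held 4 strong pairs in its window. Pds5b, a regulator of cohesin release, had a pair 26 bp upstream of its start (32.1 and 71.8, 6 bp apart), and its paralog Pds5a had one 1367 bp downstream (34.9 and 79.7). Nipbl, the cohesin loader, had a start pair of 7.06 and 30.3, and Smc3, a core subunit, one of 14.5 and 63.5. Stag1, another core subunit, had no pair at its outermost start but one of 75.8 and 119 at an annotated start 45807 bp inside the gene. Rad21 had only 3 summits of each protein in its window, and the stronger of its 2 pairs reached 4.01 and 4.02. Wapl, which unloads cohesin, had 3 pairs in its window and 0 that were strong in both lists.

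Of the 15 hepatocyte genes, 8 (53.3%) had a pair at the start, against 33.8% of all protein-coding genes. A strong pair in the window was found for 8 (53.3%), near the 47.6% of all protein-coding genes. Apob, the structural protein of very low density lipoprotein, had a pair of 43.0 and 61.0 at 1077 bp downstream of its start. Foxa2, a liver pioneer factor, had one of 40.4 and 44.4 at −1686 bp, upstream of its start. Cebpa, a hepatocyte transcription factor, had one of 17.4 and 51.2 at 114 bp downstream. The strongest pair of Hnf4a, a nuclear receptor of hepatocytes, had 27.7 and 48.9 and lay 25313 bp inside the gene. Nr1h4, the bile acid receptor FXR, had a pair of 60.5 and 101.2 with the summits 1 bp apart. Alb and Afp, which neighbor each other, shared a single pair of 11.2 and 32.3, and Serpina1a and Prox1 had 0 summits of either list in their windows.

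Of the loci known to be controlled by Ctcf or cohesin, 12 of 26 protein-coding genes had a pair at the start, against 33.8% of all. A strong pair in the window was found for 24 of 26, against 47.6%, where the crowded Hox genes share the same pairs. At H19 and Igf2, imprinted neighbors whose choice of enhancer depends on Ctcf bound between them, 7 pairs lay in the region that spans both genes with 50 kb on each side. Upstream of H19, at chr7:142580323 for Ctcf and chr7:142580804 for Rad21, the values were 43.0 and 20.9 and the summits 481 bp apart. The pair with the highest Rad21 value, at chr7:142610717 and chr7:142610810, had 32.7 for Ctcf and 34.0 for Rad21. Myc had a pair of 37.8 and 56.8 for Rad21 and Ctcf at −1952 bp from its start.

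The Hoxa cluster, a row of genes that pattern the body axis, held 16 pairs, of which 3 were strong in both lists. One lay 22 bp upstream of the Hoxa5 start (45.8 for Rad21 and 82.4 for Ctcf, 24 bp apart), one 55 bp downstream of the Hoxa7 start (49.6 and 74.9, 25 bp apart) and one between Hoxa4 and Hoxa5 (27.7 and 44.9, 51 bp apart). The Hoxd cluster held 5 pairs, with 53.9 for Rad21 and 49.8 for Ctcf in the highest, inside Hoxd4, and 22.9 and 76.7 in another near Hoxd8. Among the 9 genes named by the study, 2 (Arid1a and Ctcf) had a pair at the start and 7 a strong pair in the window. Arid1a had 2.63 and 4.51 at its start and a pair of 68.0 and 75.4 that lay 85439 bp from it, past the end of the gene. Against 33.8% and 47.6% over all protein-coding genes these lists are small and were described only.

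Chromosomes differed in how many Rad21 summits they carried. The density of Rad21 was lowest on chromosome 14 (15.4 summits per Mb) and highest on chromosome 19 (73.7), and that of Ctcf was lowest on chromosome 13 (18.4) and highest on chromosome 11 (62.1). The share of Rad21 summits with Ctcf was highest on chromosome 14 (68.9%) and lowest on chromosome 10 (43.6%), whereas the share of Ctcf summits with Rad21 stayed between 54.1% and 59.8%. In the strong class the shares were at least 94.9% for Rad21 and 96.7% to 99.2% for Ctcf. The rank correlation within pairs was between 0.717 and 0.780. The number of copies of each chromosome in the cells was not analysed here.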

How the data were processed

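ChIP-seq peak lists of WT AB17 cells were analysed for Rad21 and Ctcf, with the Brg1 and Arid1a lists as reference. According to the study's methods and the submitters' processing notes, the authors used Bowtie2 for alignment to mm10, SAMtools against low-quality reads, Picard against duplicates and MACS2 at default parameters for peak calling against the corresponding input, taken here from the titles to be the WT input. Versions and pooling were not given in the sources used here. The deposited lists give for each summit 1 value and no depth. It was taken as the −log10 q-value that the authors' peak calling gave within each library, from the summit layout and the lowest value of 1.30, since no header states the unit, so values of different lists are not on 1 scale.

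Autosomal summits were matched with Python 3 tools (numpy 2.4.6, pandas 2.3.3, scipy 1.17.1). Contexts came from GENCODE vM21 in the order promoter, exon, intron and intergenic, and motifs, soft-masked bases and sequences from the GRCm38 reference. Shares carry Wilson intervals and medians order-statistic intervals. The procedure was tested on simulated lists. Members and gene lists were chosen with earlier results of these data known. Named were the genes of 4 lists, the 5 pairs with the best average rank and the 3 highest unshared summits of each list; 1 better-ranked pair on chromosome 18 was left out because its sequence is not shown. Some named items are not reported here. Lists of histone marks, the inputs and KO cells were not used here.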

Additional observations from a re-analysis of the deposited data

How the results depend on the processing

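With a partner limit of 500 bp, 41.0% of Rad21 and 45.7% of Ctcf summits were shared (strong class 96.2% and 96.0%), rho was 0.788, and promoters held 29.4% of Rad21 summits with and 27.5% of those without Ctcf. With 2000 bp, the shares were 65.5% and 69.4% (strong 98.3% and 99.0%), rho was 0.750 and the promoter share without Ctcf 24.4%. With −log10 q-values of at least 3 in both lists, the shares were 60.1% and 54.2% (strong Ctcf 96.3%), the median distance was 70.0 bp and rho 0.783, and the promoter shares were 29.4% with and 31.6% without Ctcf, so their order turned. Without soft-masked summits, the shares were 45.7% and 53.2% (strong 92.9% and 90.8%), the median distance was 88.0 bp, rho 0.786, and the promoter shares 33.0% and 28.4%. Without summits within 2 kb of a transcript start, the shares were 49.6% and 52.6%, the median distance 93.0 bp and rho 0.799. A promoter window of 5 kb gave 47.5% with and 42.5% without Ctcf. A shorter motif of 10 bases, which starts at the AG and ends with a C past the GGC, gave a Rad21 offset of 12.5 bp, and its center lies 4 bp further to the 3′ side by construction. Except where a setting removes partners or summits by its own construction, the cause was not tested. Merging summits closer than 500 bp, adding chromosomes X and Y and a motif window of 100 bp moved 0 of their results beyond the counting interval, or 0.01 for rho. The count of genes with a pair at the start depended on the setting. It was 7037 in the main setting, 5069 with −log10 q-values of at least 3 and 9249 with a start window of 5 kb.

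No paired analysis was possible because each protein has 1 library and the comparison comes from no test. No library was left out, with 1 in each group. A single library per protein, unknown depth and the position error of weak summits limit every value.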

Other observations

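On chromosome X, 71.8% (69.5 to 74.1) of the 1487 Rad21 summits had a Ctcf summit within 1 kb, and 55.3% (53.1 to 57.5) of the 1934 Ctcf summits had a Rad21 summit. On chromosome Y the shares were 53.8% (44.3 to 63.1) of 104 and 31.7% (25.4 to 38.8) of 183.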
